A study of Homo sapiens with 4 samples.

Results

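Complex III of the respiratory chain, also called the cytochrome bc1 complex or ubiquinol-cytochrome c reductase, was described here through 10 nuclear genes chosen by symbol: UQCRB, UQCRC1, UQCRC2, UQCRFS1, UQCRH, UQCRQ, UQCR10, UQCR11 and CYC1, which encode subunits, and BCS1L, which encodes an assembly factor. Of the 10, 9 had a probe set whose single gene symbol was that gene, and each of these had 1 such probe set. They were 9 of 33252 probe sets on the array and 9 of 18417 genes with a probe set of 1 symbol. UQCRFS1, the gene of the Rieske iron-sulfur protein, had no such probe set and was not analysed here.

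Expression was measured on 4 arrays. U266, a human multiple myeloma line, was exposed for 2 h to DMSO as vehicle or to atovaquone at 15 µM. K562, a human BCR-ABL1-positive line of chronic myeloid leukaemia, was exposed for 5 h to DMSO or to atovaquone at 20 µM. Every culture was kept in RPMI-1640 medium containing fetal bovine serum. Line, dose and time therefore changed together. There was 1 array per group, so no test or p-value could be computed. Every value below describes a pair of arrays.

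Complex III passes electrons from reduced coenzyme Q to cytochrome c and moves protons across the inner mitochondrial membrane. Cytochrome b, cytochrome c1 and the Rieske protein carry the redox centres, and the other subunits form the core and the outer parts of the dimer. Atovaquone, a hydroxynaphthoquinone antimalarial, resembles coenzyme Q and occupies the site on cytochrome b at which it is oxidised. Cytochrome b is encoded by the mitochondrial gene MT-CYB, which had no probe set of its own symbol and was not analysed here. Nuclear genes of the chain are known to be controlled in part by the transcription factors NRF1 and GABP, an ETS family factor.

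Promoter stretches that hold the motifs of these factors are shown, because the factors are known to control nuclear genes of the chain in part. RefSeq promoters of GRCh38.p14, from 250 bases before to 50 after the annotated start, were matched for 8 of the 10 genes, all but UQCRB and CYC1. The letters searched on both strands were CGCANGCGC for NRF1, CCGGAAG for ETS factors and AAGATGGC for YY1. No NRF1 match overlapped an ETS match in these genes. NRF1 letters were present in 4 of the 8 promoters, those of UQCRC1, UQCR10, UQCR11 and UQCRFS1, and in 7.47% of 35116 promoters of the same length. ETS letters were present in 3 of the 8, those of UQCRH, UQCRQ and UQCR11, and in 10.3% of all. YY1 letters were present in 1 of the 8, that of UQCRC1, and in 2.89% of all. The 35116 promoters were chosen by length alone, not matched to the 8 in gene type or base content. Enrichment was not tested. Neither UQCRC2 nor BCS1L held any of the 3. The first 3 stretches below show NRF1 matches in capitals, and the next 2 show ETS matches in capitals, each written 5′ to 3′ on the strand of the gene.
UQCRC1: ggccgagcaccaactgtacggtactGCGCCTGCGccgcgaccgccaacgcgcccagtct
UQCR11: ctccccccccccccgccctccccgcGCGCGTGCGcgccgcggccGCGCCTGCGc
UQCR10: tcggccccagCGCAGGCGCggtggcgcga
UQCRH: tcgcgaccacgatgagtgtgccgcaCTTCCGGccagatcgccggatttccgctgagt
UQCRQ: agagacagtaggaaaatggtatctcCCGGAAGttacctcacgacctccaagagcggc

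The UQCRC1 stretch lies at chr3:48609660-48609718 on the minus strand and the UQCR11 stretch at chr19:1605463-1605516 on the minus strand. Those of UQCR10, UQCRH and UQCRQ lie on the plus strand, at chr22:29767352-29767380, chr1:46303627-46303683 and chr5:132866563-132866619. Counted from the annotated start, the NRF1 match began at base -47 in UQCRC1, at bases -29 and -10 in UQCR11 and at base -7 in UQCR10, where it ran across the start. The ETS match began at base -46 in UQCRH and at base -54 in UQCRQ. A match is a run of letters, and binding was not measured.

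The arrays carried the marker genes of the labelled lines. All 8 plasma cell markers were at least 1.5-fold lower on the K562 than on the U266 vehicle array, bounds included. All 5 erythroid markers with a probe set were higher on the K562 array. Over all measured genes, 17.7% were at least 1.5-fold lower and 16.2% higher in K562. The markers were chosen with earlier results of these data known, so they are no separate evidence for the labels. JCHAIN, the joining chain of immunoglobulin, had intensities of 10691 and 49.3 on the U266 and K562 vehicle arrays, and the embryonic globin gene HBZ 370 and 6725. Array medians lay between 314 and 340. Of 6 markers of T cells, fibroblasts and myeloid cells, CD3E and COL1A1 were measured on both vehicle arrays, with log2 differences (K562 over U266) of -0.36 and 0.25. Their U266 and K562 vehicle intensities were 475 and 375 (CD3E) and 435 and 527 (COL1A1). Genes of other cell types thus also passed the floor, and counting as measured near it need not mean expressed. CD3D and CD14 were under the floor in U266, with lower bounds of 0.50 and 0.52, and COL1A2 and MPO were under it on both.

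With atovaquone, 8 of the 9 complex III genes stayed within 1.2-fold of vehicle in U266, and all 8 genes measured on both K562 arrays did. Over all measured genes, 92.9% stayed within 1.2-fold in U266 and 81.3% in K562, so most genes did the same. The exception among the complex III genes was UQCRB, which encodes a small subunit close to cytochrome b that is needed for assembly of the complex. It was 2.25-fold higher with atovaquone in U266, and in K562 it was lower, below the floor that counts as measured. That floor was each array's 40th percentile over listed probe sets, an intensity of 306 on the K562 atovaquone array. Ratios were put on the log2 scale, atovaquone minus vehicle, and the median over the measured probe sets was subtracted. Since RNA came from whole cultures, fewer cells of a kind and less RNA per cell cannot be told apart.

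**Figure D1:**
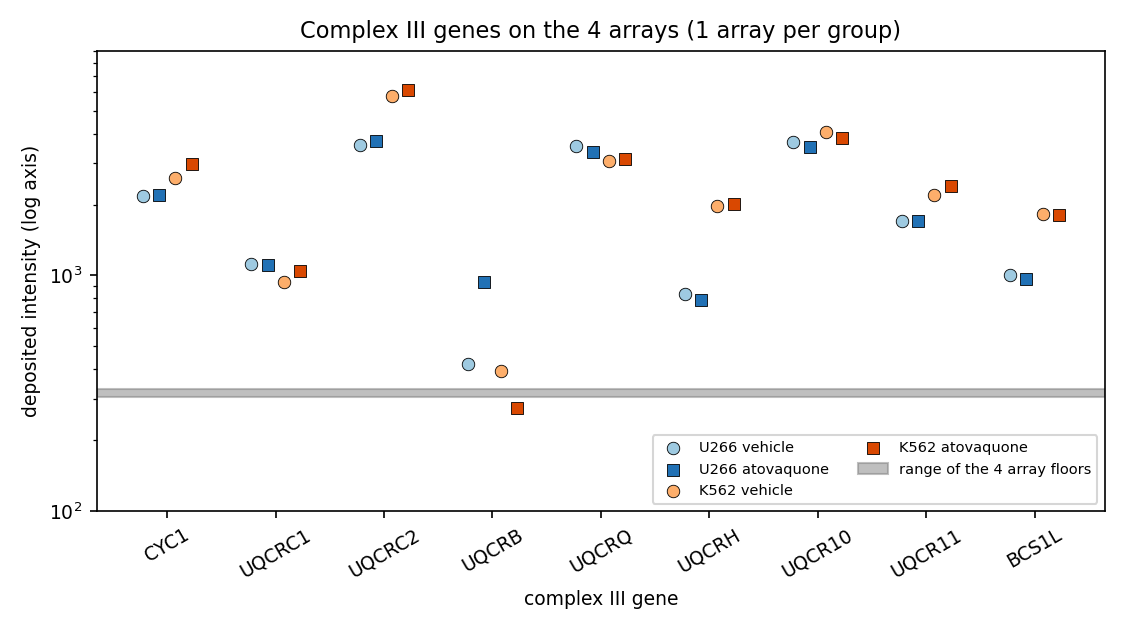
Deposited intensity (log axis) of the 9 complex III genes on the 4 arrays, 1 point per array, with the range of the 4 array floors as a grey band. Vehicle and atovaquone points of a line lie close together for every gene but UQCRB, whose K562 atovaquone point, 274, lies under the band. Heights are not comparable between genes, since each has its own probes.

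CYC1 encodes cytochrome c1, the haem protein that hands electrons to cytochrome c. Its intensities were 2185 and 2186 on the U266 vehicle and atovaquone arrays and 2602 and 2984 on the K562 arrays, in the same order. The U266 pair was level, and the K562 pair was higher with atovaquone. The log2 ratio was 0.01 in U266 and 0.20 in K562. The K562 value, 1.15-fold, was the highest of the 8 complex III genes measured on both K562 arrays and lay at percentile 85.8 of all measured genes.

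UQCRC1 and UQCRC2 encode the 2 large core proteins on the matrix side, relatives of the mitochondrial processing peptidase. UQCRC1 had intensities of 1123 and 1112 in U266 and 940.2 and 1049 in K562, vehicle first. Its log2 ratios were -0.0043 and 0.16, so the U266 arrays were level and the K562 atovaquone array stood higher. UQCRC2 had intensities of 3589 and 3722 in U266 and 5803 and 6124 in K562. Its log2 ratios were 0.06 and 0.08, both above 0 and both small. For UQCRC1 both U266 arrays stood above both K562 arrays, and for UQCRC2 both stood below.

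UQCRQ, UQCRH, UQCR10 and UQCR11 encode small supernumerary subunits. UQCRQ, which neighbours cytochrome b, had intensities of 3532 and 3340 in U266 and 3075 and 3123 in K562, with log2 ratios of -0.07 and 0.03. UQCRH, the hinge protein that helps cytochrome c1 meet cytochrome c, had intensities of 836 and 784 (U266) and 1967 and 2005 (K562), with log2 ratios of -0.08 and 0.03. Both genes stood slightly lower with atovaquone in U266 and slightly higher in K562. UQCR10 had intensities of 3675 and 3506 in U266 and 4072 and 3831 in K562, with log2 ratios of -0.06 and -0.08, and it was the single measured subunit gene below 0 in both lines. UQCR11 had intensities of 1708 and 1696 in U266 and 2204 and 2392 in K562, with log2 ratios of -0.00045 and 0.12. None of the 4 reached 1.2-fold in either line.

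BCS1L encodes the AAA protein that inserts the Rieske subunit late in assembly. Its intensities were 1002 and 966 in U266 and 1825 and 1798 in K562, vehicle first. The log2 ratios of -0.04 and -0.02 were both just below 0, and the lines lay much farther apart than the arrays within a line.

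UQCRB stood apart. Its intensities were 419 on the U266 vehicle array, 937 on the U266 atovaquone array, 394 on the K562 vehicle array and 274 on the K562 atovaquone array. The vehicle arrays of both lines were close together, and the atovaquone arrays lay on either side of them. The log2 ratio in U266 was 1.17, which placed it at rank 29 from the top of 10731 measured genes. In K562 the atovaquone array was at 0.90 of its floor, so the gene had only a bound, at least 1.28-fold lower and a log2 ratio of -0.36 or less. Without a floor it was 1.43-fold lower. The difference between the lines was not tested.

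The U266 value of UQCRB rested on a dim probe set. Its vehicle intensity was 1.27 times the floor, at percentile 47.1 of listed probe sets. Of 3121 measured genes with a U266 vehicle intensity within 1.5-fold of it, 1.44% were at least 1.5-fold higher with atovaquone. At least 2-fold higher were 18 of the 3121, UQCRB among them. Genes under the floor were left out, so this window was cut short on its dim side. Under a floor set at percentile 60 the vehicle value had no measured level, and the log2 ratio became a lower bound of 0.48, short of 1.5-fold. The K562 value was as dim, with a vehicle intensity 1.29 times its floor, at percentile 47.2. Under the percentile 60 floor both K562 values of UQCRB lay below it, and K562 gave no ratio. CD3E and COL1A1, markers of other cells, had U266 vehicle intensities of 475 and 435, near that of UQCRB. The part of low intensity or background in the result was not tested.

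**Figure D2:**
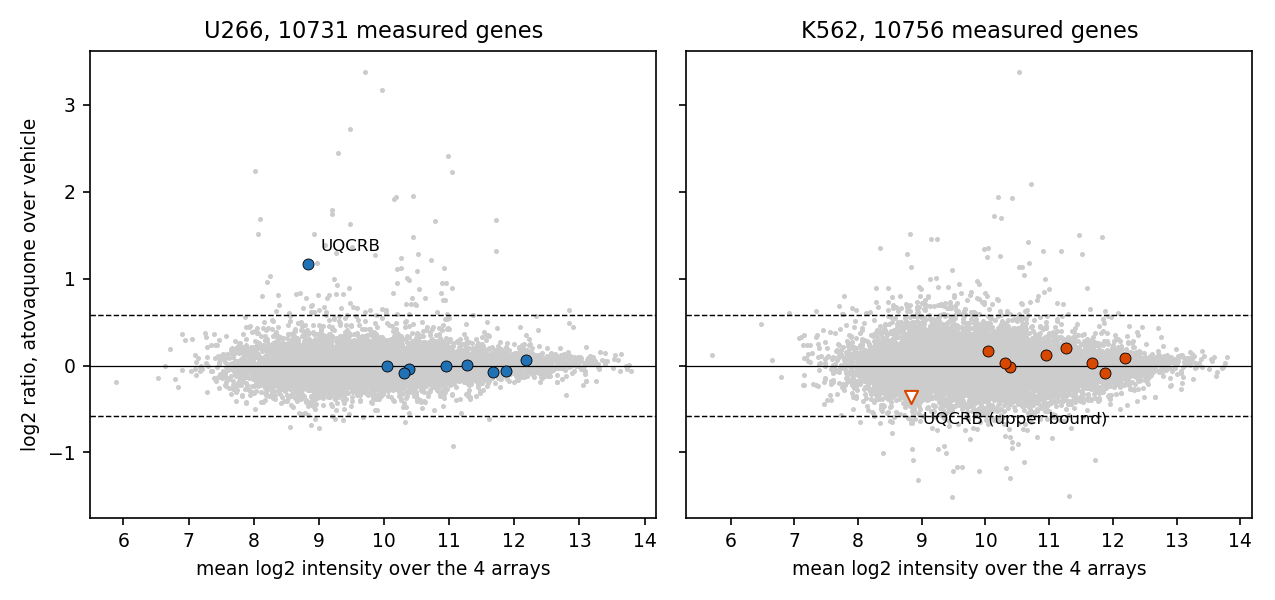
Log2 ratio of atovaquone over vehicle against the mean log2 intensity over the 4 arrays, for U266 and K562. Grey points are all measured genes, coloured points the complex III genes, the open triangle is the K562 upper bound of UQCRB, and dashed lines mark 1.5-fold. In U266 UQCRB lies at 1.17 and the other 8 genes between -0.08 and 0.06.

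Counted at 1.5-fold, 1 of 9 measured complex III genes was higher and 0 were lower in U266, against 0.857% of all measured genes higher and 0.0932% lower. In K562, 0 of 8 were higher and 0 lower, against 1.42% and 0.697% of all. One gene of 9 is too few to set a share against that background. The median log2 ratio of the complex III genes was -0.0043 in U266, beside -0.00012 over all genes, and 0.06 in K562, beside -0.0057. In U266 the mean was 0.11, of the opposite sign to the median, and without UQCRB it was -0.02. In U266, 3 of 9 genes lay above 0, and in K562 6 of 8 did. Over all genes the shares above 0 were 49.96% in U266 and 48.8% in K562.

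Agreement between probe sets could not be read within a gene, because no complex III gene had more than 1 probe set of its own symbol. Across the array, 399 genes in U266 and 417 in K562 had at least 2 measured probe sets. The SD of the log2 ratio per probe set, from the difference between 2 probe sets of a gene, was 0.10 in U266 and 0.11 in K562. The pair differed by at least 1.5-fold in 1.25% of these genes in U266 and 0.719% in K562. This spread lies within arrays and leaves out that between cultures. The U266 log2 ratio of UQCRB exceeded it, and those of the other 8 genes were smaller than it. In K562 the log2 ratios of CYC1, UQCRC1 and UQCR11 were larger than 0.11 and those of the other 5 measured genes were smaller. All 8 lay within the wider SD of 0.23 over all measured K562 genes, so the smaller SD does not set those 3 apart. Over the 3121 genes with a U266 vehicle intensity near that of UQCRB, the SD of the U266 log2 ratio was 0.23.

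Other probe sets related to 2 of the genes were listed. UQCRBP1, a pseudogene derived from UQCRB, had intensities of 861 and 1033 in U266 and 894 and 1182 in K562, vehicle first. Its atovaquone array was the higher in both lines, with log2 ratios of 0.27 and 0.41. In U266 it pointed the same way as UQCRB with a smaller ratio, and in K562 it pointed the other way. How far transcripts of the gene and of its copy hybridise to each other's probes was not tested, so the UQCRB values are uncertain to that extent. A probe set listed for UQCRHL, UQCRH and GNA13 together cannot be assigned to 1 gene. It had intensities of 1512 and 1606 in U266 and 3659 and 4055 in K562, with log2 ratios of 0.10 and 0.15. The probe set of UQCRH alone gave -0.08 and 0.03, so their signs differed in U266 and both pairs stayed within 1.2-fold.

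**Figure D3:**
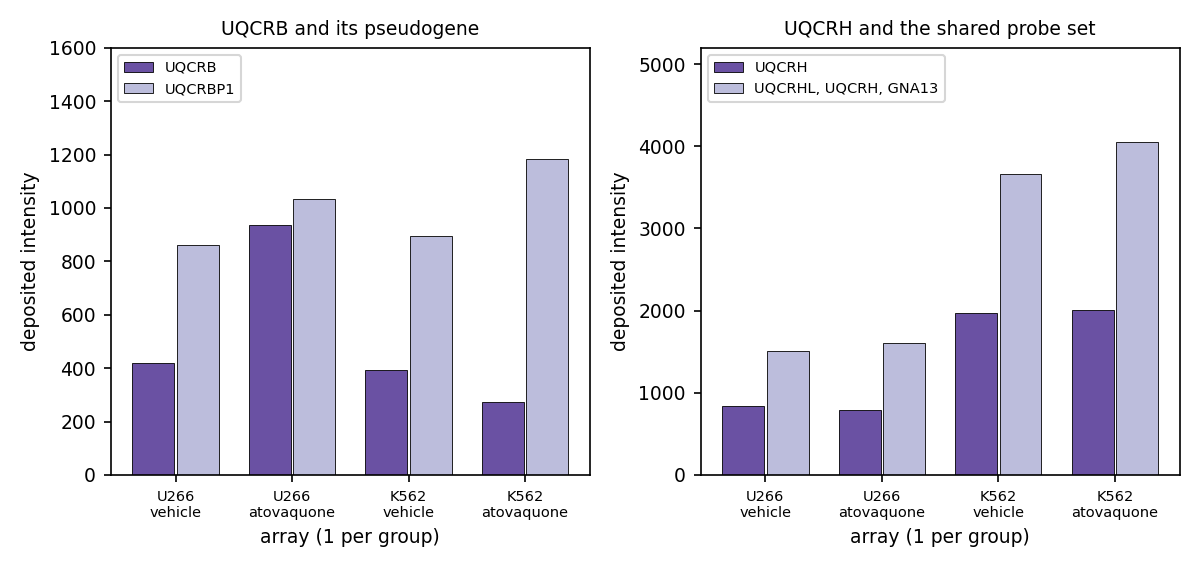
Deposited intensity (linear axis, bars from 0, 1 array per bar) of UQCRB and its pseudogene UQCRBP1, and of the UQCRH probe set and that shared with UQCRHL and GNA13. UQCRB runs from 394 to 274 in K562, where UQCRBP1 runs from 894 to 1182, and both UQCRH-related probe sets are higher in K562.

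The 5 genes whose pattern over the 4 arrays was nearest to that of UQCRB were ZFP36, GLA, RASD1, CLK1 and SNORD54. Nearness was the Euclidean distance of log2 intensities centred on each gene's mean, over 9222 genes measured on all 4 arrays. The K562 atovaquone value of UQCRB, under its floor, entered as deposited, so distances and their order rest in part on a level that was not measured. ZFP36, which encodes an mRNA decay factor, lay at a distance of 0.25, with intensities of 893 and 2143 in U266 and 718 and 543 in K562. GLA, which encodes a lysosomal galactosidase, lay at 0.27, with 1144 and 3181 in U266 and 1126 and 902 in K562. The other 3 lay at 0.46 (RASD1), 0.48 (CLK1) and 0.51 (SNORD54). All 5 were at least 1.5-fold higher with atovaquone in U266, with log2 ratios from 0.59 for RASD1 to 1.49 for GLA. In K562 their log2 ratios ran from -0.52 for SNORD54 to -0.0090 for CLK1. No other complex III gene was among the 5. Because the 5 were chosen by these same values, their ratios and that absence follow from the choice and are no separate evidence.

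Between the lines, 3 of 9 complex III genes differed by at least 1.5-fold. On the vehicle arrays UQCRH was 2.31-fold, BCS1L 1.79-fold and UQCRC2 1.59-fold higher in K562 than in U266, and 0 of 9 were at least 1.5-fold lower. All measured genes gave 16.2% at least 1.5-fold higher and 17.7% at least 1.5-fold lower in K562. The median log2 difference, K562 over U266, was 0.23 for the complex III genes and 0.0071 over all genes. Line and vehicle time differed together here and cannot be told apart.

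The order on the vehicle arrays, from the highest in K562, was UQCRH at a log2 difference of 1.21, BCS1L at 0.84, UQCRC2 at 0.67, UQCR11 at 0.34, CYC1 at 0.23 and UQCR10 at 0.12, followed by UQCRB at -0.11, UQCRQ at -0.22 and UQCRC1 at -0.28. The atovaquone arrays, a separate pair, gave 1.32 for UQCRH, 0.87 for BCS1L, 0.69 for UQCRC2, 0.47 for UQCR11, 0.42 for CYC1, 0.10 for UQCR10, -0.11 for UQCRC1 and -0.13 for UQCRQ. On the atovaquone arrays 3 of 8 measured genes were at least 1.5-fold higher in K562 and 0 lower, beside 16.4% and 18% of all genes. They were the same 3 genes as on the vehicle arrays, and the share of all genes past 1.5-fold on both pairs was not computed. Each of the 3 stayed within 1.2-fold of vehicle in both lines, so a line difference on 1 pair carries over to the other. For UQCRB the K562 atovaquone array was at least 3.12-fold below the U266 atovaquone array, whereas the vehicle arrays were 1.08-fold apart. Without replicates no error can be put on the steps between neighbours in this order. The probe set shared by UQCRHL, UQCRH and GNA13 gave log2 differences of 1.25 and 1.31 on the vehicle and atovaquone pairs, close to those of UQCRH.

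**Figure D4:**
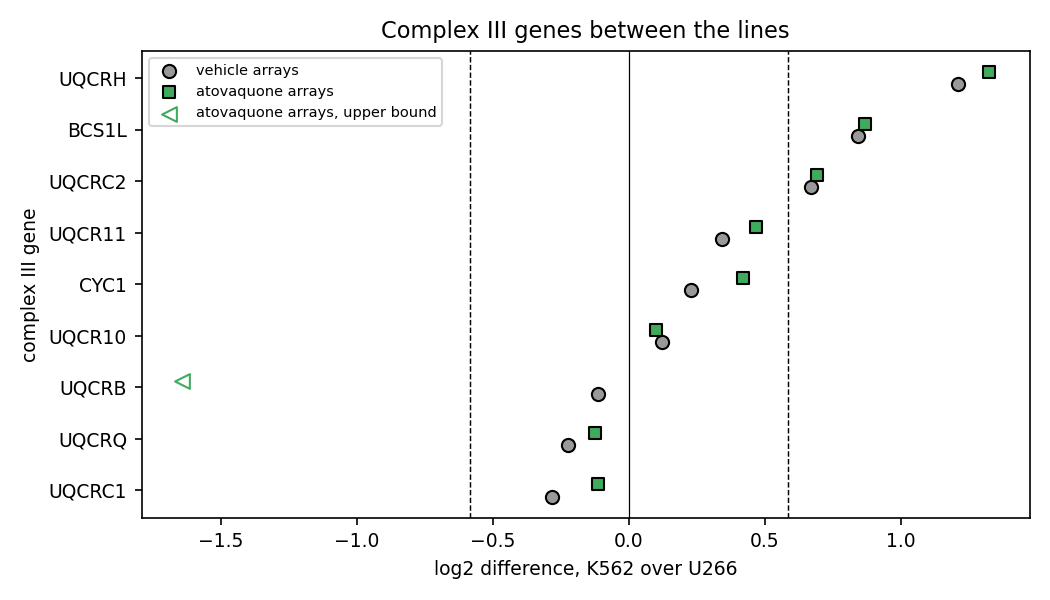
Log2 difference of K562 over U266 for each complex III gene, on the vehicle arrays (circles) and on the atovaquone arrays (squares, with an open triangle for an upper bound), dashed lines at 1.5-fold. UQCRH, BCS1L and UQCRC2 lie right of the line on both pairs, and UQCRB alone lies far apart on the 2 pairs.

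The assembly factors and partners of the complex were read from lists. Of 12 genes for other assembly factors and related proteins, 9 had a probe set. In U266 7 were measured, with 0 at least 1.5-fold higher and 0 lower and a median of -0.03. In K562 9 were measured, with 0 higher and 0 lower and a median of 0.02. The largest log2 ratios were -0.12 for UQCC5 and -0.08 for LYRM7, which escorts the Rieske protein before its insertion, in U266. In K562 they were -0.38 for HCCS, the enzyme that attaches haem to cytochromes c and c1, and 0.31 for the cytochrome b assembly factor gene UQCC2. HCCS had intensities of 1352 and 1038 in K562, vehicle first, and UQCC2 3324 and 4103. Over all measured genes, 0.857% were at least 1.5-fold higher and 0.0932% lower in U266, and 1.42% and 0.697% in K562. Counts of 0 in a list this short do not stand out from those shares.

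Genes on the electron path to and from complex III were read in the same way. Their counts stand beside 0.857% of all measured genes higher and 0.0932% lower in U266, and 1.42% and 0.697% in K562. Counts of 0 in lists this short do not stand out from those shares. Of the 13 coenzyme Q synthesis genes, 0 of 10 measured in U266 and 0 of 12 measured in K562 reached 1.5-fold in either direction. In U266 their median was 0.01, with COQ6 at 0.18 and COQ4 at -0.16. In K562 it was 0.15, with 10 of 12 above 0, beside 48.8% of all measured genes. The highest were COQ2, the prenyltransferase, at 0.41 and COQ7, a hydroxylase, at 0.35. Of 11 genes for dehydrogenases that reduce coenzyme Q and for cytochrome c, 0 of 8 in U266 and 0 of 9 in K562 reached 1.5-fold. ETFDH, which feeds electrons from fatty acid oxidation, had log2 ratios of 0.19 and 0.46 in U266 and K562. CYCS, which encodes cytochrome c, stood at 0.16 in U266. DHODH, the pyrimidine synthesis enzyme that reduces coenzyme Q, had intensities of 492 and 380 in K562, a log2 ratio of -0.37. PMPCA and PMPCB, the subunits of the processing peptidase, stood at 0.16 and 0.08 in U266 and at -0.24 and 0.24 in K562.

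Of 12 regulators of nuclear respiratory genes, 9 were measured in U266 with 0 at least 1.5-fold higher or lower, and 10 in K562 with 0 higher and 1 lower. That gene was PPARGC1B, which encodes a coactivator, with intensities of 551 and 365 and a log2 ratio of -0.59, just past 1.5-fold. The count of 1 of 10 stands beside 0.697% of all genes lower, and it became 0 under 5 of 7 other settings. The counts of 0 stand beside 1.42% of all genes higher in K562, and 0.857% higher and 0.0932% lower in U266. TFB2M, a mitochondrial transcription factor gene, stood at -0.49 in K562. NRF1 stood at -0.01 and 0.13, and GABPA, the DNA-binding subunit of GABP, at -0.06 and 0.42, in U266 and K562. TFAM, which packages and transcribes mitochondrial DNA, stood at -0.20 in U266 and TFB1M at -0.11. PPARGC1A, which encodes the coactivator PGC-1α, had intensities of 322 and 525 in U266, vehicle first. The vehicle value lay under the floor, and the gene was at least 1.60-fold higher with atovaquone. Both of its K562 values, 277 and 205, lay under the floor.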

How the data were processed

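The deposited values are the authors' processed intensity per probe set of an Affymetrix array, linear and never negative, with a lowest value of 1. Per the labels' protocols, biotin-labelled cRNA followed Affymetrix's standard method. Their software, background correction and normalisation were not given in the sources used here, and any normalisation between arrays would bear on all ratios. Genes were named from probe sets with 1 symbol (19460 of 33252), by the one brightest on average where a gene had several. Deposited intensities were put on the log2 scale and raised to a floor at each array's 40th percentile over listed probe sets, intensities of 331, 324, 305 and 306. A gene was measured when neither array lay under its floor, and one under it on 1 array has a bound. Ratios were centred on their median over measured probe sets, which removed between -0.0096 and 0.03. Changes were counted at 1.5-fold, without a test, since each group had 1 array, which limits precision. Python 3.11.15, numpy 2.4.6 and pandas 2.3.3 were used, and the calculation was tested on simulated data. Members, lists and the rule for named genes were chosen with earlier results of these data known. All 9 complex III genes were named whatever their value, with list genes past 1.5-fold or else the 2 largest ratios per line, and the 5 patterns nearest to a complex III gene past 1.5-fold. NRF1 and GABPA (chosen for the motifs) and JCHAIN and HBZ (markers) were named beside these.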

Additional observations from a re-analysis of the deposited data

Results flagged for a closer look

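UQCRB was marked because its ratio of atovaquone to vehicle pointed opposite ways in the lines, in each case by more than the spread of ratios over all measured genes. The log2 ratio was 1.17 in U266 and -0.36 or less in K562, from 1 array per group. The difference was not tested, and dose, time and line differed together.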

How the results depend on the processing

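Settings varied the floor, centring, normalisation, handling of probe sets and an offset of 50. Of 459 comparisons of a value with its main setting, 434 kept their side of 1.5-fold or stayed close. Some of the 434 could not differ, since each complex III gene had 1 probe set and averaging probe sets left its value unchanged. The 434 is therefore no measure of robustness. The UQCRB ratio in U266 was 0.48, a lower bound, under a 60th-percentile floor, which left 0 complex III genes at least 1.5-fold higher there. In K562 both UQCRB values lay under that floor, which left no ratio. The U266 ratio stayed past 1.5-fold under the other 6 settings, but several of these could hardly move it. Averaging probe sets returned the same value, because the gene has 1 probe set. Leaving out the centring, lowering the floor or removing it changed only the small median subtracted. The offset and quantile normalisation could alter the ratio, and it stayed past 1.5-fold under both. Counts over all genes moved with the floor, since fewer or more dim genes are measured. With no floor, a 20th-percentile floor and a 60th-percentile floor, genes at least 1.5-fold higher in K562 with atovaquone numbered 359, 235 and 68, and genes higher on the K562 than the U266 vehicle array 3601, 2435 and 763, with 3933, 2612 and 874 lower. Genes higher in U266 with atovaquone numbered 210 with no floor and 40 at the 60th percentile, and genes lower 106, 36 and 4. Genes lower in K562 with atovaquone numbered 190 with no floor and 44 at the 60th percentile. Among regulators of nuclear respiratory genes, the count higher in U266 became 1 without a floor and under the 20th-percentile one. The count lower in K562, PPARGC1B alone, became 0 without a floor, under the 20th-percentile and 60th-percentile floors, with the offset and after quantile normalisation; the cause was not tested. Left-out UQCRB and the probe set shared with UQCRHL and GNA13 were chosen after seeing the data. No paired analysis was possible because each group holds 1 array.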
